A study of Mus musculus with 6 samples.

Results

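The 9 genes described here supply building blocks for DNA: Rrm1, Rrm2, Tyms, Dut and Tk1 of deoxynucleotide synthesis, Shmt1, Shmt2 and Mthfd2 of folate-dependent one-carbon metabolism, and Rpia of the pentose phosphate pathway. They were taken by name, and 9 of 9 were present among the 14548 gene symbols shared by the 3 deposited count tables, which together list 32452 symbols. The data were single-cell RNA sequencing (10x, 5'-end) of germinal centre (GC) B cells sorted from the spleen of adult mice that had received NP-haptenated antigen in alum intraperitoneally. Wild type mice gave 2 libraries at day 7, sorted as B220+ CD38- GL7hi, and 2 at day 14, sorted as B220+ CD95hi GL7hi IgD-. The 2 remaining libraries, also of day 14 and of the later gate, came from irradiated hosts rebuilt with wild type bone marrow. The control host was Il4ra+/+, and the other, called KO here, carried Ccl19Cre/+ and Il4raf/f. In the KO host the floxed gene is lost from cells that have expressed Ccl19, a stromal population that includes follicular dendritic cells, so the sorted donor B cells keep the wild type gene and its level in them cannot check the label. The labels do not say how many animals stand behind a library.

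Ribonucleotide reductase, made of the large subunit Rrm1 and the small subunit Rrm2, turns ribonucleotides into deoxyribonucleotides. Thymidylate comes from de novo synthesis by Tyms, which uses a folate carrying a one-carbon unit and a substrate supplied by Dut, or from salvage of thymidine by Tk1. The one-carbon units come largely from serine, through Shmt1 in the cytosol and Shmt2 in mitochondria, and Mthfd2 oxidises the mitochondrial folate so that the unit can be passed on. Rpia interconverts ribulose and ribose phosphates and so supplies the sugar of every nucleotide. GC B cells are among the fastest dividing cells of the mouse, cycling mainly in the dark zone (DZ) after being selected in the light zone (LZ), where a burst of Myc marks the selected cells.

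The libraries held 1012 and 2530 cells at day 7, 9109 and 10648 at day 14, 8038 in the chimaera control and 7314 in the chimaera KO. Their totals ran from 20339933 to 62202828 unique molecular identifiers (UMIs, 1 per captured transcript). The median cell held 17277.5 and 18233.5 UMIs at day 7, 3399 and 3178.5 at day 14, and 6676 and 7185.5 in the chimaeras. No day 7 cell had under 7290 UMIs and no day 14 cell had over 9998, so the tables of the 2 days overlap only between these values. All 4 B cell markers looked at, among them Cd79a, Cd79b and Ms4a1, were detected in each library. Between 1 and 135 cell barcodes were shared by any pair of libraries. Levels are given as CPM, the UMIs of a gene per 1000000 UMIs of the shared symbols, summed over the cells named. In such sums, fewer cells with a transcript and fewer transcripts per cell cannot be told apart. That scale leaves out immunoglobulin genes, which the day 7 table does not list.

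Positions are those of the GENCODE M21 annotation of the mm10 (GRCm38) build. Rrm1 spans chr7:102441695-102469771, Rrm2 chr12:24708241-24714146, Tyms chr5:30058202-30073617, Dut chr2:125247190-125258608, Tk1 chr11:117815526-117826092, Shmt1 chr11:60788104-60811718, Shmt2 chr10:127517123-127522444, Mthfd2 chr6:83305691-83325908 and Rpia chr6:70765720-70792232. Tk1 overlaps Afmid, Shmt1 overlaps Smcr8 and Shmt2 overlaps Ndufa4l2, each on the opposite strand, Rrm1 and Mthfd2 each overlap an unnamed gene model on their own strand, and how the counting used strand is not given in the sources used here. Tyms has 1 annotated pseudogene of its name. Promoter windows of 250 bases before to 50 bases after the start were available from RefSeq (GRCm38.p6) for 9 of 9 genes. The box CCAAT, the binding sequence of NF-Y, was searched on both strands. It occurred in 4 of the 9 windows, those of Rrm1, Rrm2, Shmt1 and Mthfd2, and in 37.4% of all 32851 windows. The E box CACGTG occurred in 1 of the 9 (Tyms) and in 7.15% of all windows. The E2F forms TTTCCCGC or TTTGGCGC occurred in none of the 9 and in 1.56% of all windows, and the amino acid response form TGATGNAAT in none and in 0.965%. Overlapping matches were allowed, and none of these shares says which factors bind. The following 4 windows are shown, 5' to 3' on the strand of the gene and with CCAAT on either strand in capitals, because these genes take the 3 courses described next: both reductase subunits with the cycle, Mthfd2 less so, and Rpia not.
Rrm1, chr7:102441445-102441744, plus strand: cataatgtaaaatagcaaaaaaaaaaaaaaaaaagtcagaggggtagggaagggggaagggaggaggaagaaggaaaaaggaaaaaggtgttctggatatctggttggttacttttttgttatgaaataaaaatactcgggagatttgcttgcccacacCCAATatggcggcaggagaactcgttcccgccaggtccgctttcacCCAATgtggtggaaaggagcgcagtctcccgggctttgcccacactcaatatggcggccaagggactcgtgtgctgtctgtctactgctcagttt
Rrm2, chr12:24708004-24708303, plus strand: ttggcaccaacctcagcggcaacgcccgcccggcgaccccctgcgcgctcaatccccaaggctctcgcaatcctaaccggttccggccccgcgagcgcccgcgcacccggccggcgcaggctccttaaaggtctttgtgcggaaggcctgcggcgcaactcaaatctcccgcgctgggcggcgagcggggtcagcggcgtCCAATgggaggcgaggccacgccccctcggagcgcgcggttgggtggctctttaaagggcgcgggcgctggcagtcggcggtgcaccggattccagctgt
Mthfd2, chr6:83317555-83317854, minus strand: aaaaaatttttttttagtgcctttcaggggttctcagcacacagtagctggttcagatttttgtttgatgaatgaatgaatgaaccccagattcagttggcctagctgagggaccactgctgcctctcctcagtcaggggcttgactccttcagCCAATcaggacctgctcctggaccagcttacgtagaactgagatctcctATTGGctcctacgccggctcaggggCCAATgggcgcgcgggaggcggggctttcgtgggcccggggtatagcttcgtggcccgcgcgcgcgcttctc
Rpia, chr6:70792126-70792425, minus strand: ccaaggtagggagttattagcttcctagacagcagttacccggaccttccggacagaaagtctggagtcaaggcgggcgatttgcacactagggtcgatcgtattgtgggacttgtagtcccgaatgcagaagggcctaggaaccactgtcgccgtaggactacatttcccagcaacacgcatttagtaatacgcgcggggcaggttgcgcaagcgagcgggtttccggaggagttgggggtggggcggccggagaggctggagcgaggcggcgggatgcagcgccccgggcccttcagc
In Rrm1 the 2 boxes began 91 and 45 bases before the start, in Rrm2 the single box 50 bases before it, and in Mthfd2 the 3 boxes 96, 47 and 22 bases before it. The Rpia window holds none. Those of Tyms, Tk1, Dut and Shmt2, not shown, hold none either. Yet these genes were higher in S than in G1 cells, by means of 2.48, 2.08, 1.55 and 0.63 on the log2 scale. A link between the box and the course over the cycle was not tested.

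The deposited tables call each cell G1, S or G2M, and 8 of the 9 genes were higher in S than in G1 cells in 6 of 6 libraries, against 29.6% of the 5567 genes with a mean of at least 20 CPM. The calls were made from expression by a method not given in the sources used here, and widely used S-phase lists hold Tyms, Rrm1 and Rrm2, so this contrast is a description without a test. Rrm2 had the widest range of the 9, with 37.2 and 40.6 CPM in G1 and 609.5 and 561 CPM in S at day 7. At day 14 its levels were 14.2 and 13.5 CPM in G1 and 179 and 185 CPM in S, and in the chimaeras 41.9 (control) and 56.5 CPM (KO) in G1 and 366 and 389 CPM in S. No G1 value of Rrm2 reached the lowest S value, and the S minus G1 difference averaged 3.53 ± 0.47 on the log2 scale (SD, n = 6 libraries). The corresponding means were 2.48 ± 0.27 for Tyms, 2.08 ± 0.14 for Tk1, 1.98 ± 0.25 for Rrm1 and 1.55 ± 0.16 for Dut. The large reductase subunit thus spanned less of the cycle range than the small one. Among the one-carbon genes Shmt1 differed by 1.23 ± 0.19, while the mitochondrial pair differed least, Mthfd2 by 0.64 ± 0.12 and Shmt2 by 0.63 ± 0.08.

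**Figure D1:**
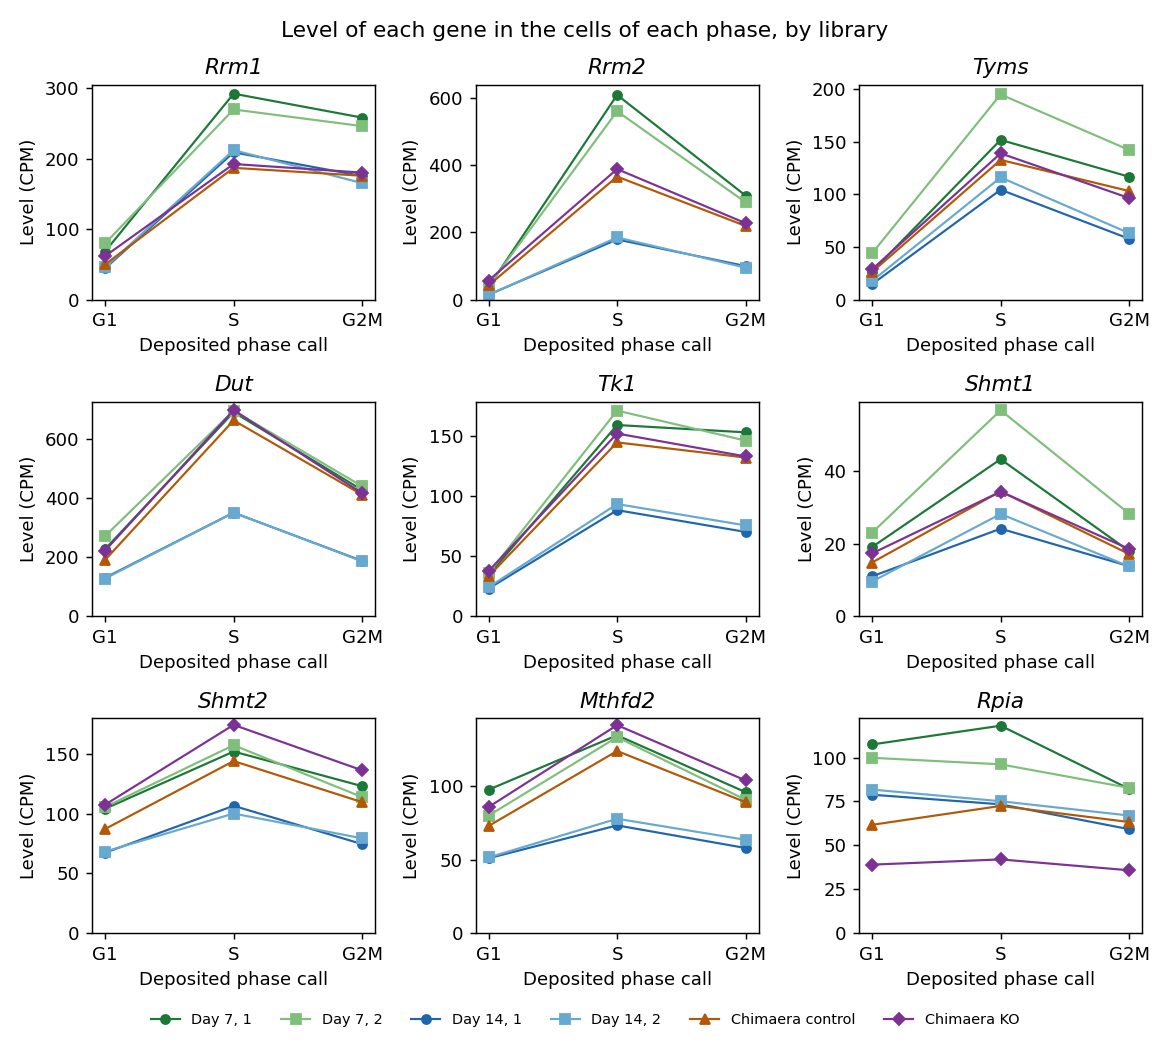
Level of each gene in CPM (vertical axes, from 0) in cells called G1, S or G2M (horizontal axes), with 1 line per library and markers for single values. In each library 8 genes peak in S, whereas Rpia moves little and its KO line, between 35.8 and 42.0 CPM, runs below the other 5.

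Rpia did not share the rise from G1 to S. Its S minus G1 difference averaged 0.03 ± 0.15 (SD, n = 6), above 0 in 3 libraries and below 0 in 3. At day 14, for example, Rpia stood at 78.8 and 81.8 CPM in G1, 73.3 and 75.1 in S and 59.2 and 66.9 in G2M. From S to G2M all 9 genes fell in level in 6 of 6 libraries, as did 30.8% of the 5567 genes. The mean differences were -1.003 for Shmt1, -0.88 for Rrm2, -0.77 for Dut, -0.58 for Tyms, -0.43 for Mthfd2 and -0.40 for Shmt2. Those of Rpia (-0.27), Tk1 (-0.21) and Rrm1 (-0.18) were smaller. Tk1 and Rrm1 thus stayed near their S level in G2M cells, 3.67-fold and 3.47-fold above G1 on average.

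The rest of the pathways, as 4 lists chosen by role, were read the same way. Of 12 purine synthesis genes at 20 CPM or more, 9 were higher in S in all 6 libraries, with mean log2 differences of 0.86 for Paics, 0.75 for Gart and 0.74 for Ppat. The pyrimidine and deoxynucleotide list gave 9 of 12, led by Dctpp1 (1.22), which hydrolyses modified deoxycytidine triphosphates, and by Ctps (1.18) and Umps (1.16) of cytidine and uridine nucleotide synthesis. Samhd1, which breaks deoxynucleotides down, was lower in S in 6 of 6 libraries (-0.40). The folate and serine list gave 6 of 8, among them Mthfd1 (0.89) and Psat1 (0.82), and Mthfs (-0.36) was lower in all 6. Of 5 pentose phosphate genes, only transketolase, Tkt (0.37), was higher in S in all 6. The median of the mean S minus G1 difference was 0.48 for purine, 0.53 for pyrimidine, 0.63 for folate and -0.02 for pentose phosphate genes, beside -0.03 over the 5567 genes. The example genes were taken from these lists by size.

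By the zone calls, Shmt1 went opposite to most of the 9 genes, and Shmt2 and Mthfd2 kept to neither side in all libraries and phases. Within cells of the same phase, Rrm1, Rrm2, Tyms, Dut, Tk1 and Rpia were higher in DZ than in LZ cells in both G1 and S of 6 of 6 libraries, which 14.1% of the 5567 genes were. Shmt1 was lower in DZ cells in both phases of 6 of 6 libraries, which 10.1% of genes were. Zone calls too were made from expression, so no test was applied. In S cells Rrm2 stood at 696 and 655 CPM in DZ and 383 and 407 in LZ at day 7, 209 and 211 against 102 and 115 at day 14, and 419 (control) and 445 (KO) against 291 and 277. Each DZ value of Rrm2 lay above the LZ value of its library, by 0.78 ± 0.18 on the log2 scale (SD, n = 6). The DZ minus LZ difference in S cells was 0.55 ± 0.18 for Tk1, 0.48 ± 0.06 for Rrm1, 0.37 ± 0.18 for Tyms, 0.37 ± 0.04 for Dut and 0.20 ± 0.06 for Rpia.

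Shmt1, the cytosolic serine hydroxymethyltransferase, went the other way. In S cells it stood at 35.8 and 45.1 CPM in DZ and 63.2 and 76.1 in LZ at day 7, 19.8 and 23.9 against 36.3 and 40.0 at day 14, and 27.8 (control) and 31.1 (KO) against 52.1 and 43.7. Every library had the higher value in LZ, with a mean DZ minus LZ difference of -0.77 ± 0.15 in S cells (SD, n = 6) and -1.03 ± 0.46 in G1 cells. In G2M cells the gap was wider, -2.15 ± 0.36 over 5 libraries. The LZ part of G2M was small, 33 to 102 cells in those 5 libraries, and with 4 cells day 7 replicate 1 was left out. Shmt2 was lower in DZ in S cells of 6 of 6 libraries (-0.26 ± 0.09), as were 20.3% of the 5567 genes. It was also lower in G2M cells of 5 of 5 (-0.67 ± 0.12), as were 18.2% of genes, and in G1 cells of 5 of 6. Mthfd2 was lower in DZ in G2M cells of 5 of 5 libraries (-0.42 ± 0.25) and in S cells of 5 of 6, and was split 3 to 3 in G1. After each cell was thinned to 1000 UMIs, 4 of the 9 genes were higher in DZ in S cells of 6 of 6 libraries, in place of 6 without thinning, where 18.6% of genes were.

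**Figure D2:**
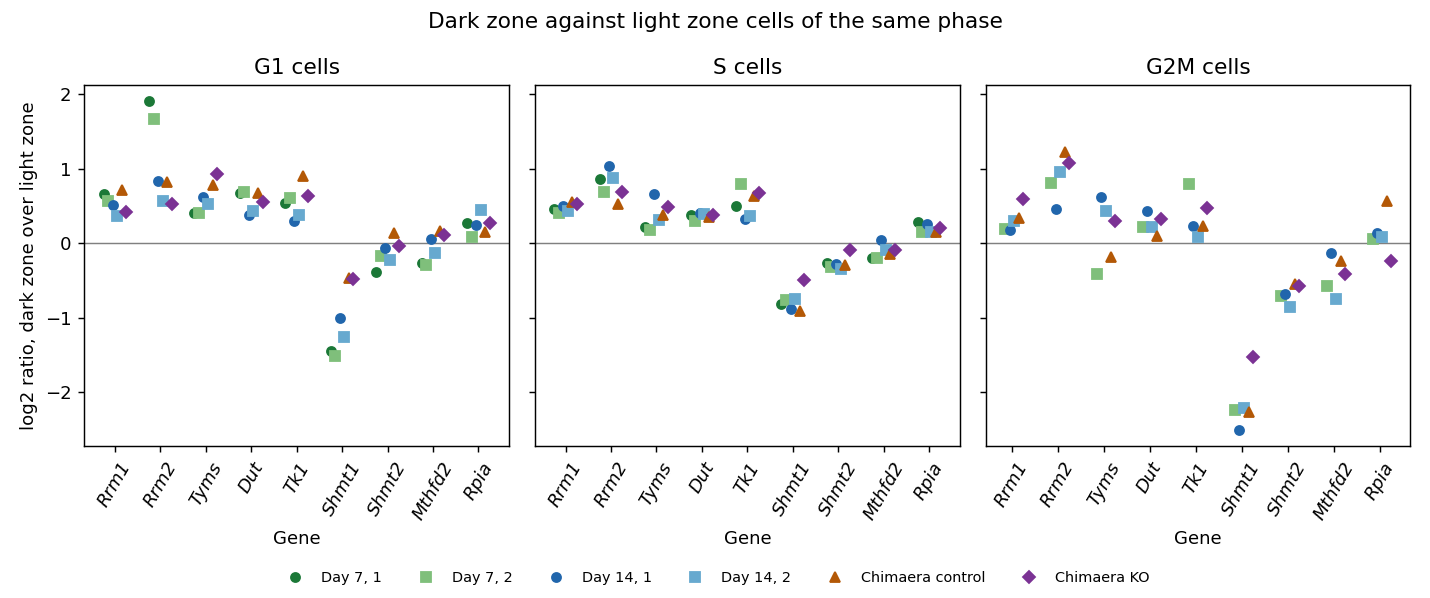
Log2 ratio of the DZ to the LZ level of each gene within G1, S and G2M cells, with 1 point per library and the line at 0 marking equal levels. Points of Rrm1, Rrm2, Dut and Tk1 lie above the line in all 3 panels and those of Shmt1 below it, and day 7 replicate 1 has no G2M point.

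The deposited clusters place Shmt1 most sharply. In each of the 6 libraries its highest level was in the cluster whose leading genes include Myc and Srm, with all 5 MYC-high markers (Myc, Ncl, Npm1, Odc1 and Nop56) more than 0.5 above the rest of its table on the log2 scale, called MYC-high-like here: cluster 2 at day 7, 5 at day 14 and 6 in the chimaeras. There Shmt1 stood at 79.2 and 84.8 CPM at day 7, 60.2 and 63.0 at day 14, and 80.03 (control) and 85.4 (KO) in the chimaeras. The next cluster held 24.0 and 28.9, 30.2 and 25.1, 20.3 and 20.9 CPM, so no other cluster came near. Shmt1 is itself among the 10 leading genes of the day 7 and chimaera clusters, and the clusters were drawn on these cells, so this is a description without a test. Shmt2 was also highest in that cluster in 6 of 6 libraries, at 209 and 189, 168 and 161, 221 and 268 CPM. Mthfd2 was highest there in 5 of 6, the exception being day 14 replicate 2, where cluster 8 held 100.5 CPM and the MYC-high-like cluster 88.2 CPM.

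The thymidylate and reductase genes were highest in clusters that differed between the tables. At day 7 Rrm1, Rrm2, Tyms, Dut and Tk1 were all highest in cluster 1, led by histone genes, in both libraries, with Rrm2 at 604 and 554 CPM. At day 14 Dut was highest in cluster 2, led by the licensing genes Cdc6 and Mcm3, at 337 and 336 CPM. Rrm1 was highest there in the histone-led cluster 0, at 239 and 235 CPM. Rrm2 and Tyms were highest in day 14 cluster 10 in both libraries, which held only 26 and 24 cells, with 7 UMIs of Rrm2 and 4 of Tyms in each. Tk1 was highest in that cluster in replicate 1 (5 UMIs) and in cluster 8, led by Slpi, in replicate 2 (26 UMIs). In the chimaeras Dut and Tyms were highest in the MYC-high-like cluster in both libraries, Dut at 619.7 and 676 CPM and Tyms at 156 and 160.4 CPM. Of its cells, 56.4% were called S. The lowest levels of Rrm1, Rrm2, Tyms, Dut and Tk1 in the chimaeras were all in cluster 0, which is led by Il4i1, Nfkbid and Ephx1 and is 86.3% G1, with Rrm2 at 41.2 and 55.2 CPM.

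**Figure D3:**
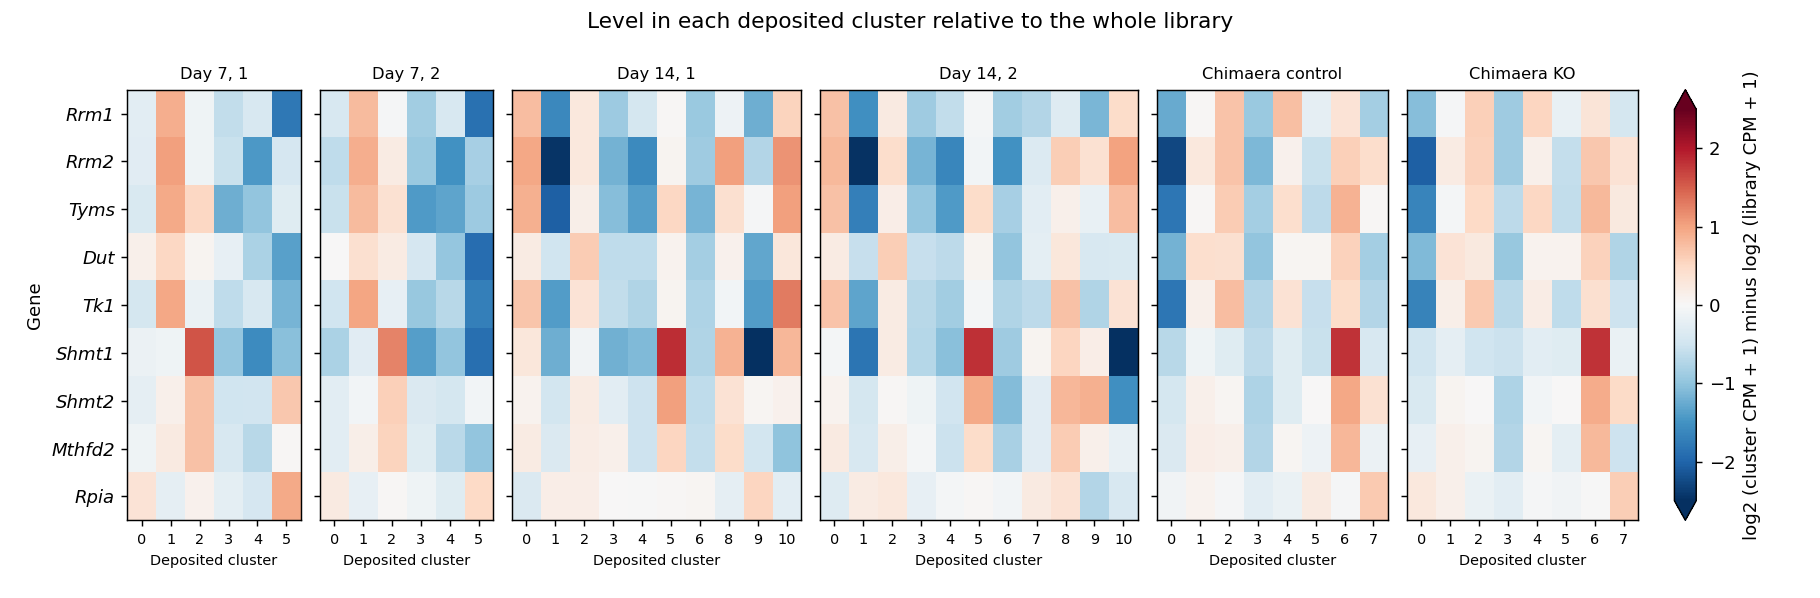
Heat map of the level of each gene (rows) in each deposited cluster with at least 20 cells (columns) of each library (panels), as log2 of CPM plus 1 relative to the whole library, with colours saturating at ±2.5. Red cells mark Shmt1 in cluster 2 at day 7, 5 at day 14 and 6 in the chimaeras, and Rpia in cluster 5 at day 7 and 7 in the chimaeras.

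Rpia was highest in plasma-like cells in 5 of 6 libraries. Plasma-like here means that all 7 plasma markers looked at, among them Prdm1 and Xbp1, passed the same margin. In day 7 cluster 5 it stood at 198 and 131 CPM, in chimaera cluster 7 at 104 (control) and 60.1 CPM (KO), and in day 14 cluster 9 at 103 CPM in replicate 1. In replicate 2 that cluster held the lowest Rpia value, 44.6 CPM, and cluster 8, led by Slpi, the highest, 96.3 CPM. Day 14 cluster 9 was small, with 72 cells in replicate 1 and 71 in replicate 2. The range of Rpia over clusters was narrow, from 1.75-fold to 2.59-fold between the highest and lowest cluster of a library, whereas Rrm2 spanned 5.35-fold to 12.5-fold.

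Over 49 profiles of cluster and library, centred within each library, the correlation of log2 levels grouped the genes only partly in the same way. Of 5763 genes, those most like Rrm2 were Cdc45 (Pearson r = 0.94) and Tyms (0.94), and among those most like Rrm1 were Tmpo (0.93) and Tk1 (0.93). The nearest to Tyms were Rrm2 and Cdc45 (0.90), among the nearest to Tk1 were Brip1 (0.94) and Rrm1, and the nearest to Dut were Mcm7 (0.94), Orc6 (0.93) and Rfc3 (0.93). Shmt1 was most like Nop56 (0.85), Tamm41 (0.80) and Tbl3 (0.80), Shmt2 like Phgdh (0.85), Psmd7 (0.81) and Gspt1 (0.81), and Mthfd2 like Ranbp1 (0.82), Set (0.80) and Hnrnpab (0.80). Rpia had no close match, with Mgat2 at 0.65, Tex261 at 0.65 and Ube2j1 at 0.64. Among the members, Rpia and Rrm1 gave -0.42 and Shmt1 and Shmt2 0.72. Rpia was also below 0 with Tk1 (-0.35), Dut (-0.26), Rrm2 (-0.13) and Tyms (-0.11), and gave 0.24 with Shmt2. Mthfd2 gave 0.72 with Shmt2, 0.68 with Dut and 0.62 with Shmt1, and Shmt1 and Dut gave 0.59. Profiles of 1 library share its depth and preparation, and the values describe these libraries only.

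All 9 genes were lower at day 14 than at day 7 when all deposited cells were summed. Of 11995 genes tested, 33% were called lower (edgeR's quasi-likelihood test with Benjamini-Hochberg adjustment, adjusted p under 0.05), and 34.9% higher. Rrm2 stood at 298 and 296 CPM in the day 7 libraries and 94.5 and 97.4 at day 14, a log2 fold change of -1.82 (SE 0.06, adjusted p 2.29e-05). Dut stood at 431 and 465 against 218 and 219.8 CPM (-1.22, SE 0.07). The 2 days did not overlap for any of the 9 genes, and how many of all genes share this was not counted. Tyms stood at 94.0 and 128 against 57.2 and 65.4 CPM (-1.05, SE 0.16), and Tk1 at 111 and 120.1 against 59.5 and 64.7 (-1.09, SE 0.08). Rrm1 stood at 198 and 203 against 140.3 and 142 CPM (-0.70, SE 0.06), a smaller change than that of its partner subunit. Among the one-carbon genes, Shmt1 stood at 25.9 and 35.3 against 16.04 and 17.0 CPM (-1.09, SE 0.16). Mthfd2 stood at 108 and 100.2 against 60.2 and 64.1 CPM (-0.93, SE 0.06), and Shmt2 at 125 and 125 against 82.0 and 82.5 (-0.79, SE 0.06). Rpia changed least, from 102 and 92.0 to 70.3 and 74.3 CPM (-0.61, SE 0.07). These edgeR changes use TMM scaling over the genes tested, and for all 9 genes they are larger in size than the printed CPM values alone give. The adjusted p of these 9 ran up to 0.0017, that of Tyms. The same 9 were called lower within G1, S and G2M cells, where 32%, 31.9% and 32.3% of genes were, with Rrm2 at -1.67, -1.85 and -1.80.

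This difference depends on which cells are compared. With only the cells in the UMI range that both days hold, 143 and 151 cells at day 7 and 979 and 1038 at day 14, 0 of the 9 genes were called lower and 7 were called higher, Rrm1 by 1.13 and Tyms by 0.95. Of all 9818 genes tested with that selection, 2204 were called lower and 2217 higher. That selection, added after the data were seen, is not neutral to the cycle. It kept mostly G1 cells at day 7 (79.7% and 68.9%) and few at day 14 (18.5% and 15.6%). Within G1 cells of that range 0 were called lower and 4 higher, where 1217 and 1260 of 7913 genes were. Within S cells of the range, 12 and 21 at day 7 and 368 and 408 at day 14, Rrm2 (-1.11, adjusted p 1.91e-06), Dut (-0.66, adjusted p 0.0019) and Tyms (-0.72, adjusted p 0.031) were called lower in edgeR and none was called higher. Of 8396 genes tested in those S cells, 407 were called lower and 341 higher. In G2M cells of the range Tk1 alone of the members was called lower and Shmt2 alone higher, where 659 and 604 of 8621 genes were. The day, the sort gate, the depth and the highest mitochondrial share of the deposited cells differ together between the groups and cannot be told apart. No day 7 cell had more than 4.99% (replicate 1) or 4.98% (replicate 2) mitochondrial UMIs, whereas day 14 cells reached 19.99% in both libraries. The symbols listed differ too, 27998 at day 7 and 31053 at day 14. Summed plasma markers, 7 of 7 detected in each library, stood at 2639.9 and 2780.0 CPM at day 7 against 524 and 508 at day 14, and summed erythroid markers at 631 and 209.6 against 149.6 and 145. Jchain made up most of the plasma sum, at 1950 and 1996 CPM at day 7 against 361 and 347 at day 14. Irf4 alone of the plasma markers went the other way, at 16.9 and 15.1 against 26.9 and 25.2 CPM. The part of the plasma and erythroid markers in the difference was not tested.

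**Figure D4:**
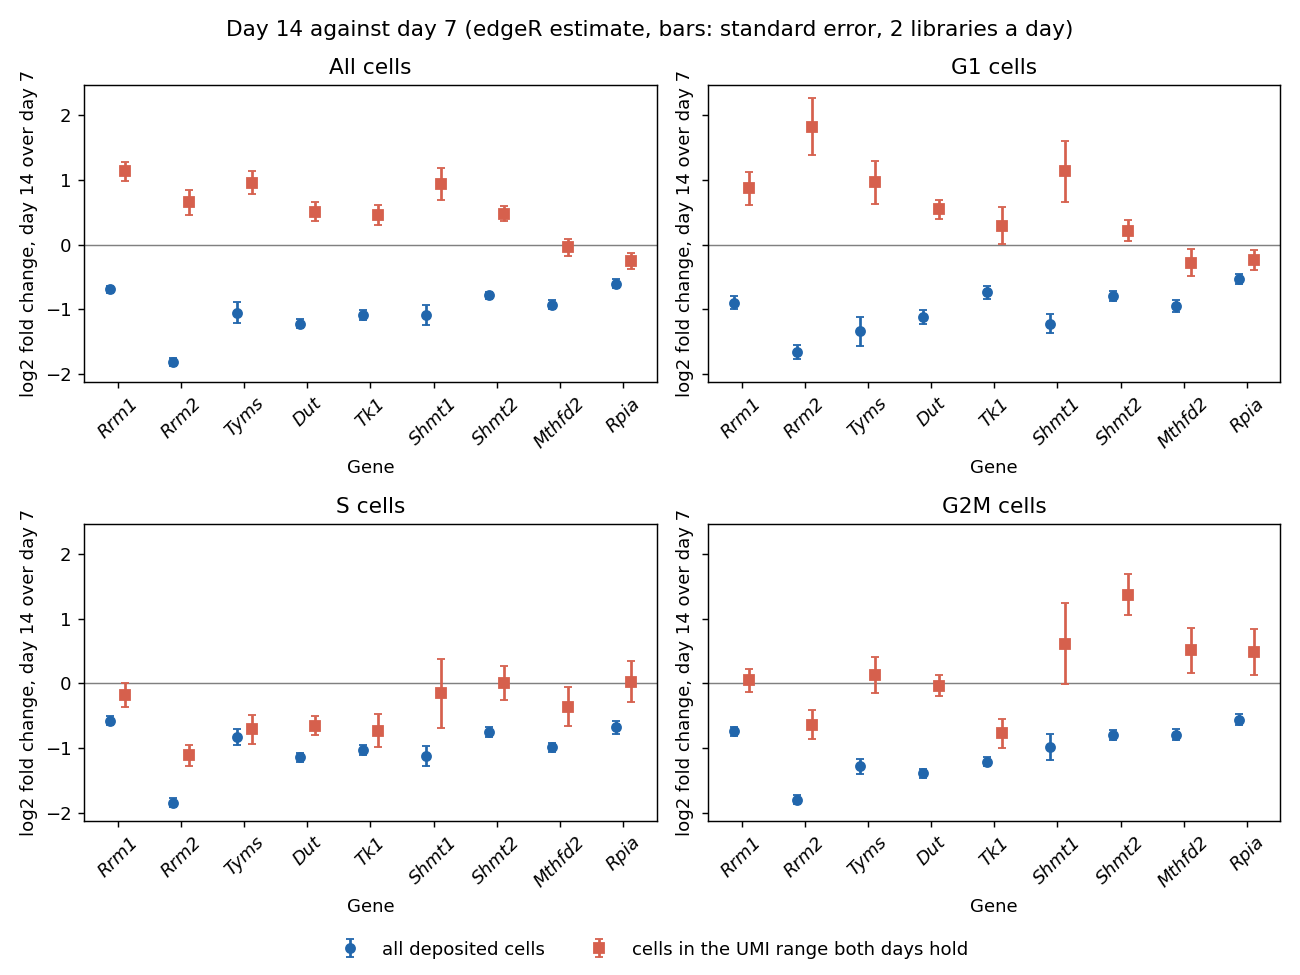
Log2 fold change of day 14 over day 7 for each gene in all, G1, S and G2M cells (panels), with points for the edgeR estimate and bars for its standard error (2 libraries a day). Circles, from all deposited cells, lie below 0 throughout, whereas squares, from cells in the UMI range both days hold, lie above 0 for 7 genes in the panel of all cells and at or below 0.03 in S cells.

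The chimaera libraries, also of day 14, did not sit with the day 14 libraries. For 7 of the 9 genes both chimaera values lay above both day 14 values, as they did for 67.5% of the 3946 genes called lower at day 14 and listed in all 3 tables. Dut, for instance, stood at 415 (control) and 453 CPM (KO) beside 218 and 219.8 at day 14 and 431 and 465 at day 7. Rrm2 stood at 204 and 231 CPM, between the 2 days. Rrm1, at 135 and 149 CPM, straddled the day 14 values, and Rpia, at 65.7 and 38.8 CPM, lay below them. The median UMI count of the chimaera cells also lay between those of the 2 days, and host, irradiation and table differ as well. Chimaera cells reached 9.97% mitochondrial UMIs in both libraries, and their table lists 15763 symbols.

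Most genes of the pathway lists were also called lower at day 14 in all cells, where 33% of all genes were, but 6 were called higher and 7 were not called. The list genes were not looked at within the UMI range both days hold, where the change of most members reversed in all cells. Of 14 purine synthesis genes, 13 were called lower and 1 higher, with a median log2 change of -0.78 beside 0.04 over all 11995 genes. Hprt (-2.31) and Aprt (-1.34), the purine salvage enzymes, and Prps1 (-2.14), which makes phosphoribosyl pyrophosphate, fell most, and Pfas rose (0.34). Of 16 pyrimidine and deoxynucleotide genes, 12 were lower, led by Nme1 (-1.78), Cmpk1 (-1.33) and Nme2 (-1.31), and 1, Tk2 (0.30), was higher (median -0.62). Nme1 and Nme2 are near-identical neighbours, so their separate values are uncertain. Of 16 folate and serine genes, 9 were lower, led by the serine synthesis genes Psph (-1.79), Psat1 (-1.37) and Phgdh (-1.12). Among the 3 that were higher were Slc25a32 (0.56) and Mtr (0.37) (median of the list -0.50). Of 6 pentose phosphate genes, 5 were lower, led by Taldo1 (-1.46), Pgd (-1.30) and Rpe (-0.84), and Pgls (0.75) was higher (median -0.78).

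The step from G1 to S was compared between the days in 1 model with a term for each library. Rrm1, Rrm2 and Tyms may have entered the phase calls themselves, so the p-values of these genes are not those of an independent measure. Of the 11194 genes tested, 1.81% had a larger and 4.05% a smaller S minus G1 difference at day 14. Rrm1 had a larger one, by 0.32 (SE 0.09, adjusted p 0.035), as did Tyms, by 0.49 (SE 0.12, adjusted p 0.010), both in edgeR. The S over G1 log2 difference of Tyms was 2.51 and 2.15 at day 7 and 2.85 and 2.72 at day 14. For Rrm1 it was 2.10 and 1.76 against 2.25 and 2.22. The other 7 genes did not pass, with estimates from -0.32 (Tk1, adjusted p 0.053) to 0.07 (Shmt1). Neither call held under DESeq2 (adjusted p 0.73 for Rrm1 and 0.39 for Tyms) nor with cells thinned to 1000 UMIs, where the estimate was -0.02 for Rrm1 and 0.06 for Tyms. Without day 7 replicate 2 it was 0.18 and 0.32, and without day 14 replicate 1 it was 0.30 and 0.43, neither called, and without day 14 replicate 2 Rrm1 (0.33) was not called. Neither was called without the 5% of cells with the most UMIs (0.30 and 0.42). Of the 4 pathway lists, 2 genes, among them Nme1 (0.26), had a larger step at day 14, and Mthfs (-0.67), Psph (-0.63) and Aprt (-0.49) a smaller one. 

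Between the hosts, Rpia was the only member past the size rule given below, and Shmt2 and Mthfd2 differed the other way by less. Rpia stood at 65.7 CPM in the control library (3934 UMIs) and 38.8 CPM in the KO library (2252 UMIs), a log2 ratio of -0.76 with an exact 95% interval of -0.83 to -0.68. With 1 library per host there is no test, and such intervals cover counting error only. The 2 day 14 libraries, by comparison, held 70.3 and 74.3 CPM and differed by 0.08. A size rule (at least 20 CPM in either library, a log2 ratio of at least 0.5 in size, an interval without 0 and a size beyond the day 14 pair's) was met downward by 0.831% and upward by 0.574% of 5055 genes. Rpia met it and ranked 15 from the lowest ratio, and 0 other members met it in either direction. The lower level was found in G1 (-0.66), S (-0.79) and G2M cells (-0.82), in DZ (-0.78) and LZ cells (-0.69), and in each of the 8 clusters, from -0.41 in cluster 0 to -1.08 in cluster 5. The interval lay below 0 in 8 of 8 clusters, as for 0.455% of the 5055 genes. With cluster shares made equal in the 2 libraries the ratio was -0.70, and with cells thinned to 1000 UMIs it was -0.61. Summed plasma markers, 7 of 7 detected in both, stood at 2556 CPM for the control and 1595 for the KO library. Jchain made up most of that sum (1691 and 1045 CPM), and Xbp1 alone of the 7 was not lower in the KO library (219.8 and 224.8 CPM). Within the plasma-like cluster 7 Rpia stood at 104 CPM in 288 control cells and 60.1 CPM in 136 KO cells (-0.78, interval -1.19 to -0.40).

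The other 8 genes were higher in the KO library when all cells were summed, each by less than the rule asks. Shmt2 stood at 113 and 141 CPM, a log2 ratio of 0.32 (interval 0.27 to 0.36), beside 0.01 between the day 14 libraries. It was higher in 8 of 8 clusters with all 8 intervals above 0, as were 1.17% of the 5055 genes, from 0.26 in cluster 1 to 0.55 in cluster 4. Mthfd2, the next mitochondrial step, stood at 94.7 and 111 CPM (0.23, interval 0.18 to 0.28) and was higher in 7 of 8 clusters. Rrm2 (0.18), Rrm1 (0.15), Tk1 (0.13), Dut (0.13) and Tyms (0.08) also had intervals above 0, whereas that of Shmt1 (0.10) ran from -0.01 to 0.21. How many of the 5055 genes had such an interval in all cells was not counted, and their median log2 ratio was 0.001. The day 14 pair differed by 0.19 for Tyms, 0.12 for Tk1 and 0.09 for Shmt1, which is about as much or more. Intervals of that pair also lay above 0 for Tyms, Tk1, Mthfd2 and Rpia. The KO library held fewer G1 cells (39.2% against 44.6%). For Rrm1, Rrm2, Tyms, Dut and Tk1 the ratio was larger in G1 cells, and smaller in S and G2M cells, than in all cells. Rrm2 differed by 0.43 in G1, 0.09 in S and 0.05 in G2M cells (interval -0.01 to 0.11). Rrm1 differed by 0.31 in G1 but by 0.04 in S (interval -0.02 to 0.11) and 0.04 in G2M (interval -0.03 to 0.10). Tyms was lower in G2M cells of the KO library (-0.10, interval -0.19 to -0.01), and its intervals in G1 and S held 0. The ratio of Shmt2 ranged from 0.28 to 0.31 over the phases and that of Mthfd2 from 0.19 to 0.23, with all intervals above 0. Across the pathway lists 0 of 12 purine, 0 of 10 pyrimidine, 0 of 8 folate and 0 of 5 pentose phosphate genes met the size rule.

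Rpia lies beside the immunoglobulin kappa constant gene. Igkc spans chr6:70726435-70726966 on the plus strand, and 38.8 kb separate it from the end of Rpia, which is read on the minus strand towards it. Cells were therefore split by their light chain UMIs in the 4 libraries whose tables list these genes, with at least 5 UMIs of which 90% were kappa (Igkc) or lambda (Iglc1, Iglc2 or Iglc3). Rpia was higher in kappa cells in 4 of 4 libraries: it stood at 74.0 against 39.7 CPM and 70.8 against 48.6 CPM in the day 14 libraries, 69.9 against 45.4 for the control host and 54.3 against 26.5 for the KO host. Each kappa value lay above all 4 lambda values. The log2 difference was 0.65 (SE 0.10, adjusted p 0.00088 in edgeR with a term for each library), where 7.29% of 9611 genes were called higher and 12% lower. It remained called under all 11 alternatives run, between 0.58 and 0.73. In G1 cells alone, an alternative added after the data were seen, it was 0.62.

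Kappa and lambda cells also differed in depth and number. The median kappa cell held 3088.5 and 3069 UMIs in the day 14 libraries against 5101 and 4807 for lambda cells, and 3983 and 4252 against 7149 and 7672 in the chimaeras. In the chimaeras 363 and 345 kappa and 867 and 689 lambda cells passed, of 8038 and 7314 cells. Many chimaera cells held both kinds. From 20% to 80% kappa, in steps of 20%, there were 1390, 1527 and 1277 control and 1123, 1425 and 1237 KO cells. Up to 20% there were 1643 and 1304 cells, and above 80% 780 and 710. Why cells held both kinds of light chain UMIs was not tested. By share of kappa in these UMIs, Rpia stood lowest in cells with under 20% in each library with light chain data, at 44.9 and 49.2 CPM at day 14 and 48.7 (control) and 27.5 (KO) in the chimaeras, among cells with at least 5 such UMIs. Between 20% and 100% it varied from 75.4 to 95.7 CPM at day 14, from 70.2 to 77.8 in the control and from 37.9 to 49.9 in the KO. In the KO library it rose over the range, from 37.9 CPM at 20% to 40% kappa to 49.9 CPM above 80%. Cells with under 5 light chain UMIs held 44.8 and 50.001 CPM at day 14 and 43.8 (control) and 34.2 (KO) in the chimaeras, below each value from 20% kappa upward in the same library. In kappa cells the KO to control ratio of Rpia was -0.36 (interval -0.77 to 0.03) and in lambda cells -0.78 (interval -1.07 to -0.49). Eif2ak3, the next protein-coding gene, 52.3 kb on the other side, did not pass the kappa against lambda test (0.10, adjusted p 0.54).

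Among the other members, Dut was lower in kappa cells by 0.32 (SE 0.08, adjusted p 0.012 in edgeR), with a lower value in 4 of 4 libraries: 209 against 234 and 202 against 259 CPM at day 14, 355 against 400.4 for the control host and 432 against 470.4 for the KO host. That call was lost with at least 20 light chain UMIs (-0.02), a purity of 80% (-0.12), G1 cells alone (-0.21) and without day 14 replicate 2 (-0.27). The other 7 did not pass, from -0.15 for Shmt2 to 0.34 for Shmt1. Of the pathway lists, 5 of 14 purine genes were lower in kappa cells, led by Aprt (-0.50), Prps1 (-0.42) and Paics (-0.41), and 2 of 16 pyrimidine genes, Nme2 (-0.60) and Cmpk1 (-0.51). Taldo1 (-0.59) and Pgd (-0.43) were lower among 6 pentose phosphate genes, and 0 were higher. Among 14 folate and serine genes tested, 3 were lower, Mthfs (-0.45) and Psph (-0.42) among them, and Mtr (0.61) was higher.

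**Figure D5:**
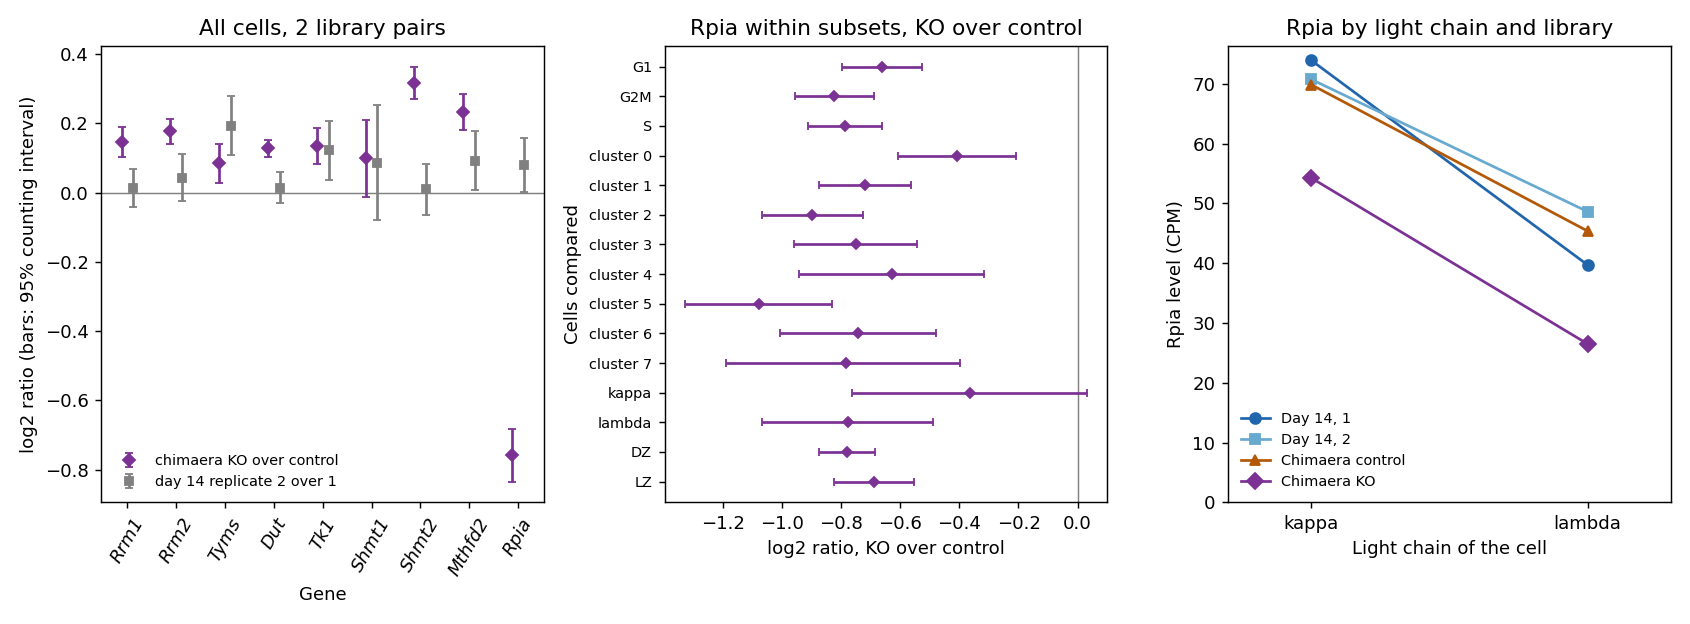
Left, log2 ratio of KO over control for each gene (diamonds) and of the 2 day 14 libraries (squares), with 95% counting intervals; middle, the Rpia ratio within phases, clusters, light chain classes and zones; right, Rpia level in CPM in kappa and lambda cells of 4 libraries. Rpia lies at -0.76 in the left panel with all other genes above 0, each point of the middle panel lies below 0, and each line in the right panel falls from kappa to lambda.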

How the data were processed

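Single-cell libraries were made with 10x 5'-end chemistry, and Cell Ranger, Seurat and the mm10 genome are named without versions or settings, per the submitters' processing notes. The values in the deposited tables are whole-number UMI counts of each gene in each cell, not normalised by the authors. Deposited cell tables add library, Phase, Position and cluster, and how these were called is not given in the sources used here. All deposited cells were kept. Counts were summed by library and class and scaled to CPM. Groups followed the labels. Day 14 was compared with day 7 (2 libraries each, 26599 shared symbols), S minus G1 between the days, and kappa with lambda cells, with edgeR 4.0.16 under R 4.3.3 (filterByExpr, TMM, quasi-likelihood test), calling genes at an adjusted p under 0.05 (Benjamini-Hochberg). Standard errors are the fold change over the square root of F. Fold changes of edgeR use TMM scaling over the genes tested, so they differ from ratios of the CPM values printed. Replicates are not said to be separate animals, so p-values measure spread between these libraries. KO against control has 1 library each, with exact conditional binomial intervals. Doublets were not called, and an alternative left out the 5% of cells with the most UMIs. DESeq2 1.42.0 was another alternative. Scripts were tested on simulated data. The members and lists were chosen with earlier results of these data known. The members are always named, with at most 3 genes per list, direction and comparison by size, and the 3 genes most like each member. Some genes that this rule takes are not reported here.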

Additional observations from a re-analysis of the deposited data

Results flagged for a closer look

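The difference between S and G1 cells differed between the days for Rrm1, by 0.32 on the log2 scale, and for Tyms, by 0.49, both larger at day 14, by the test of that difference in edgeR. Neither was called with DESeq2 (adjusted p 0.73 and 0.39) or with cells thinned to 1000 UMIs (-0.02 and 0.06), and both genes may have entered the phase calls. With groups of 1 or 2 libraries, single libraries were not screened for outlying values.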

How the results depend on the processing

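With only the cells in the UMI range both days hold, chosen after seeing the data, the log2 change from day 7 to day 14 in all cells reversed for Rrm1 (1.13), Rrm2 (0.65), Tyms (0.95), Dut (0.51), Tk1 (0.46), Shmt1 (0.94) and Shmt2 (0.48). In G1 cells it reversed for Rrm1 (0.87), Rrm2 (1.82), Tyms (0.96), Dut (0.54), Tk1 (0.29), Shmt1 (1.13) and Shmt2 (0.21). In S cells it reversed for Shmt2 (0.0018) and Rpia (0.023), and in G2M cells for Rrm1 (0.043), Tyms (0.13), Shmt1 (0.61), Shmt2 (1.37), Mthfd2 (0.51) and Rpia (0.48). That range left 4421 genes called in all cells, 2477 in G1, 748 in S and 1263 in G2M, against 8145, 7193, 6943 and 7076 with all cells. Thinning to 1000 UMIs left 4648 in G1, 4100 in S and 4292 in G2M. Leaving out 1 library gave 6312 to 8874 calls in all cells, 5843 to 7827 in G1, 5183 to 7707 in S and 5276 to 7925 in G2M. The labels pair no libraries across the days (r = 0.18 over 11995 genes), and a replicate block gave 8401, 7456, 7306 and 7415 calls with all 9 members still called. The S minus G1 comparison by day called 656 genes, 30.9% of them higher, against 88 with DESeq2, 89 with thinned cells (46.1% higher; Rrm1 reversed, -0.017) and 288 to 1008 without 1 library (59.3% higher without day 7 replicate 1). The kappa comparison called 1850 (37.9% higher), against 1146 with DESeq2 (20.4% higher), 729 with at least 20 light chain UMIs, 1177 in G1 cells and 1139 to 1867 without 1 library. The size rule for KO was met by 71 genes, against 114 with thinned cells, 187 from 5 CPM and 12 at a log2 ratio of at least 1, which Rpia does not reach. With thinned cells 1 member, in place of 2, was higher in LZ in S cells of all libraries. The cause of these changes was not tested. Low UMI counts limit Shmt1 most, the member with the lowest CPM.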
